A study of Mus musculus with 6 samples.

Results

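The expression of 36 core genes of autophagy and lysosome biogenesis was examined in the tibialis anterior (TA) muscle of male C57BL/6J mice aged 24 months. The genes were taken from a fixed list of symbols, and they cover 7 roles: the initiation kinase complex, the class III PI3-kinase complex, membrane supply, the conjugation machinery, the ATG8 family, cargo receptors, and the regulators and membrane proteins of the lysosome. All 36 genes were found among the 45777 genes of the count table and among the 16800 genes of the tables of TPM (transcript abundance scaled for length and library total), and all 36 passed the filter on low counts that left 16188 genes for testing. RNA-Seq was carried out on 3 mice given vehicle (DMSO with tween 80) and 3 mice given BML-260, a rhodanine-based small molecule used in the study to inhibit the phosphatase DUSP22, at 5 mg/kg for 1 month. The labels name no transgene or deletion, and no group of young mice was analysed here. The age is that of the labels. For these same RNA-Seq mice, the methods of the study give a range from that age upward, and its results name a higher age.

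Autophagy is the route by which a cell encloses part of its own cytoplasm in a double membrane, the autophagosome, and delivers it to the lysosome for breakdown. A kinase complex starts the process, a lipid kinase complex marks the membrane, lipid transfer proteins feed it, and a pair of ubiquitin-like conjugation reactions attach ATG8 proteins (LC3 and GABARAP) to it, where they are bound by receptors that carry cargo. In skeletal muscle, both excess and loss of autophagy are known to accompany wasting, and several of its genes are known targets of the FOXO and TFEB families of transcription factors.

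The libraries held 39522890 to 56998875 counts, and the lowest count of any of the 36 genes in any library was 176. The muscle identity of the samples and the presence of other cells were checked with marker lists, summed as normalized counts (counts divided by DESeq2 size factors), and vehicle replicate 3 stood apart from the other libraries. The sum of 9 genes of the skeletal muscle fiber was 3858365 in vehicle replicate 3, against 6178946 and 6259021 in vehicle replicates 1 and 2 and 6007934 to 7233604 with BML-260. In TPM, in which these genes take a large part of each library, the same sum was 106748 in vehicle replicate 3 and 114919 to 144305 in the other 5 libraries. For 9 macrophage markers vehicle replicate 3 had 18386 normalized counts, against 6305 and 6557 in the other vehicle libraries and 3829 to 4780 with BML-260. For 5 neutrophil markers it had 8045, vehicle replicates 1 and 2 had 2430 and 381, and the BML-260 libraries had 97 to 218. For 5 erythroid genes it had 109987, against 33901 and 38766 with vehicle and 27683 to 36793 with BML-260. Vehicle replicate 3 was also the highest library for 4 adipocyte markers (785, against 78.2 to 163 elsewhere) and for 4 Schwann cell markers (2704, against 866 to 1303). It was the lowest for 5 endothelial markers (5604, against 5822 to 6907), and 6 fibroblast markers had 27481 to 43710 with vehicle and 25213 to 42878 with BML-260. In TPM, vehicle replicate 3 was instead the highest library for the endothelial markers (76.3, against 53.8 to 65.6) and the fibroblast markers (814, against 313 to 617). The 5 lymphocyte markers were near the limit of detection, with at most 22 counts for any marker in a library and a count of 0 in at least 1 library for every marker. In bulk muscle, fewer cells of a type and less RNA per cell cannot be told apart. The main results below are therefore also given without vehicle replicate 3, a split that leaves 2 vehicle libraries.

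The levels of the 36 genes spanned a wide range of TPM. The highest mean TPM over the 6 libraries was that of Sqstm1 (487), the gene of the cargo receptor p62, and Lamp1 (283), a major glycoprotein of the lysosomal membrane, and Map1lc3a (261), an LC3 gene, followed. Map1lc3b (106), Gabarap (103), Gabarapl2 (85.8), Lamp2 (68.2), Gabarapl1 (62.9) and Optn (61.1) came next. The lowest were Tfe3 (2.65), Atg7 (3.88), Atg14 (5.24), Pik3r4 (5.42), Atg2a (5.65) and Vps18 (5.72). Transcripts of the ATG8 proteins and their receptors were thus more abundant per length than those of the conjugation machinery, of which Atg4a (27.3) was the highest and Atg7 the lowest. Neighbours in this order were mostly within each other's spread between libraries, as Map1lc3b ranged from 75.4 to 199 and Gabarap from 77 to 200.

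**Figure D1:**
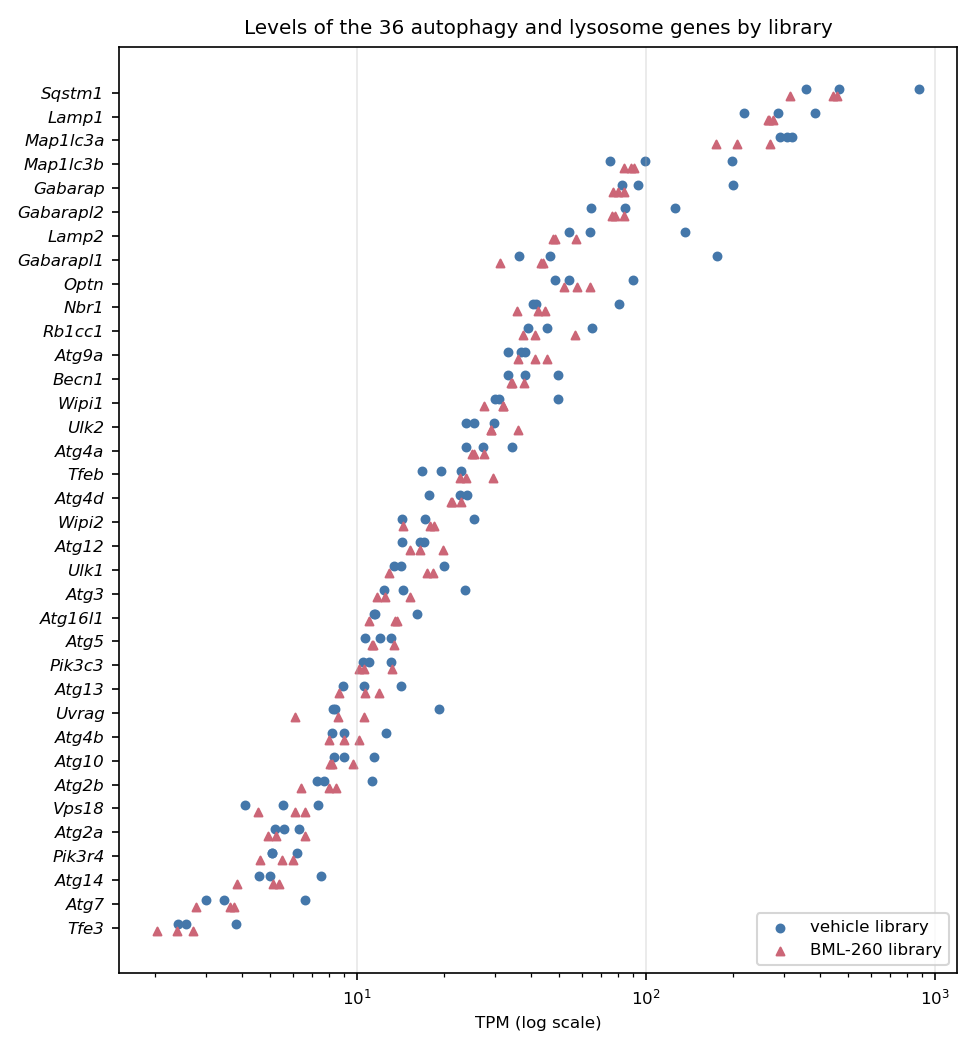
TPM of each of the 36 genes (log axis) in the 3 vehicle libraries (circles) and the 3 BML-260 libraries (triangles), ordered by the mean over all 6. Sqstm1, Lamp1 and Map1lc3a lie at the top and Tfe3 at the bottom, and the point far to the right in Gabarapl1 is vehicle replicate 3 at 176.

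The comparison of BML-260 with vehicle asked whether the transcripts of this machinery changed in aged muscle under the inhibitor. No gene of the 36 had an adjusted p under 0.05 (edgeR's quasi-likelihood F-test, p-values adjusted over all 16188 genes by Benjamini-Hochberg), and the smallest adjusted p among them was 0.788. The same was true of all genes tested (0 of 16188, 0%; smallest adjusted p 0.0592), although 966 genes had an unadjusted p under 0.05. DESeq2's Wald test gave an adjusted p under 0.05 to 0 of the 36 genes and to 82 of all genes. A more lenient threshold asks for a 1.3-fold difference or more and an unadjusted p below 0.05. At that threshold 1 of the 36 genes (Lamp2) was lower with BML-260, where 4.86% of all genes tested were lower. In the other direction 0 of the 36 were higher, where 0.896% of all genes were, and Lamp2 was also the only one of the 36 with an unadjusted p under 0.05. The median log2 fold change was 0.0039 over the 36 genes and -0.0039 over all genes tested, with 20 of the 36 genes above 0 and 16 below. The median size of the change, regardless of sign, was 0.15 on the log2 scale for the 36 genes and 0.21 for all genes.

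The error of these estimates sets how far a change can be bounded. Standard errors of the log2 fold change ranged from 0.13 to 0.41, with a median of 0.17. For 22 of the 36 genes the whole 95% confidence interval lay within a 1.5-fold change in either direction (0.58 on the log2 scale), as it did for 32.1% of all genes tested. The intervals of the remaining 14 genes reached beyond 1.5-fold: Ulk2, Uvrag, Atg9a, Atg4d, Atg7, Atg12, Map1lc3a, Map1lc3b, Gabarap, Gabarapl1, Sqstm1, Nbr1, Tfeb and Lamp2. For those genes a 1.5-fold change in at least 1 direction was not excluded.

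**Figure D2:**
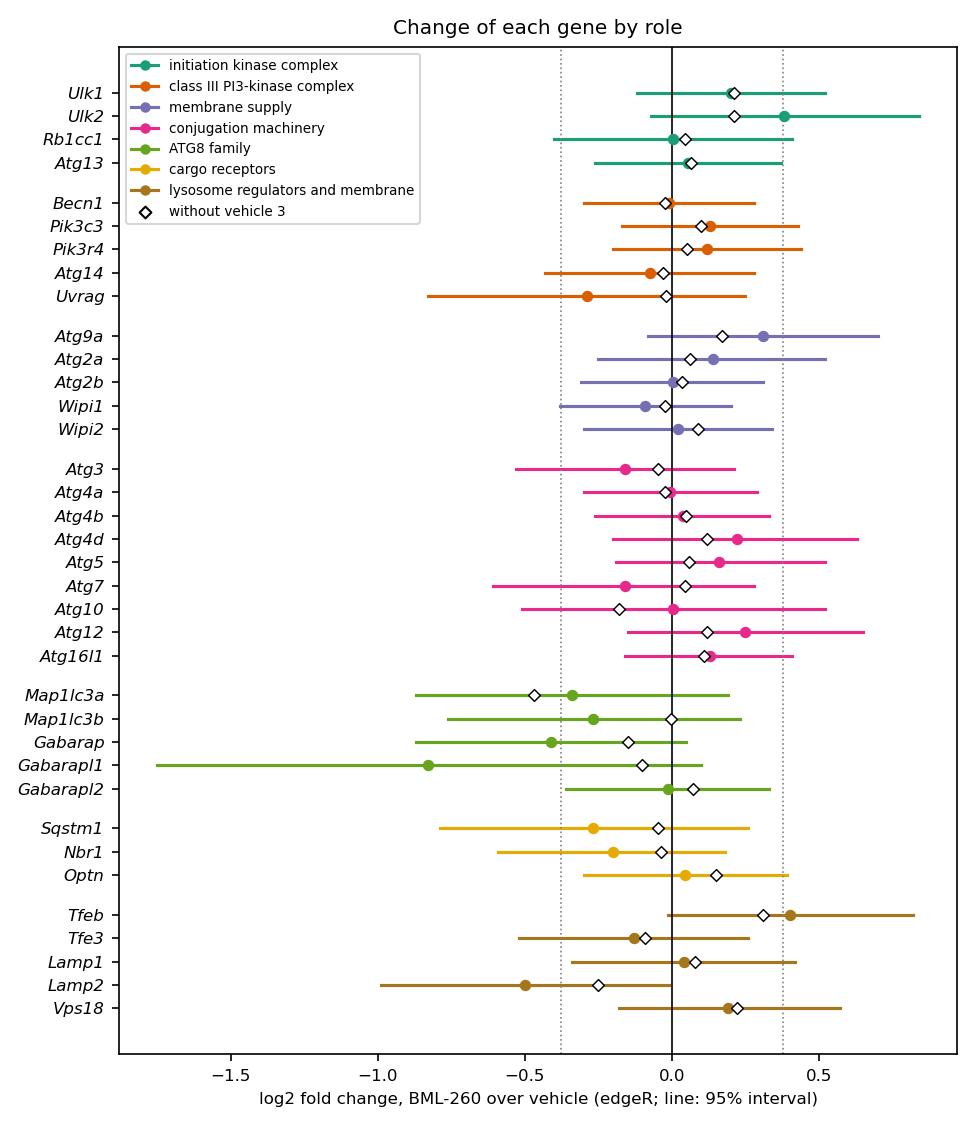
The log2 fold change of each gene (filled points, edgeR) with its 95% interval (lines), coloured by role, with the estimate without vehicle replicate 3 as open diamonds; dotted lines mark a 1.3-fold change. The interval of Lamp2 alone stays on one side of 0, and Gabarapl1 has the widest interval and the longest distance between the filled point (-0.83) and the diamond (-0.10).

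Groups of libraries did not overlap for 2 of the 36 genes. Atg9a was higher in every BML-260 library than in any vehicle library, where 5.43% of all genes tested were, and Gabarap was lower in every BML-260 library, where 6.7% of all genes were. Much of the spread came from vehicle replicate 3. On normalized counts that library was the highest of the 6 for 15 of the 36 genes and the lowest for 9, and over all genes tested it was the highest for 32.3% and the lowest for 31.1%. Against the mean of the other vehicle libraries it was at least 1.3-fold higher for 8 of the 36 genes and at least 1.3-fold lower for 5, compared with 25.8% and 25.6% of all genes. On TPM, which is scaled to the total of each library, vehicle replicate 3 was the highest library for 27 of the 36 genes and for 63.3% of all genes tested, so libraries were compared mainly on normalized counts, and genes with each other in TPM.

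**Figure D3:**
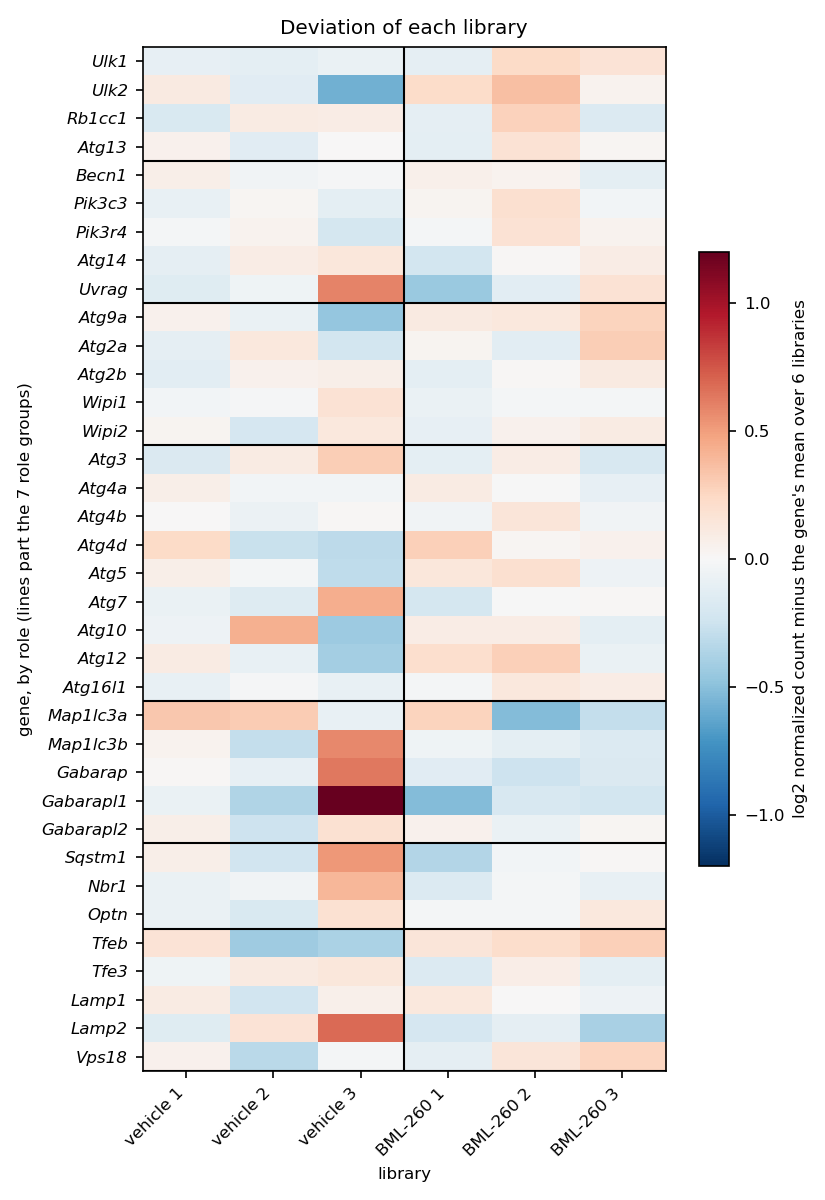
Each cell is the log2 normalized count of a gene in a library minus the mean of that gene over the 6 libraries, with genes grouped by role. The column of vehicle replicate 3 holds the darkest cell, Gabarapl1, and stands out in red for Lamp2, Gabarap, Uvrag, Map1lc3b and Sqstm1 and in blue for Ulk2 and Atg9a.

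The initiation kinase complex consists of the kinases ULK1 and ULK2 with the scaffold FIP200 (Rb1cc1) and the adaptor ATG13. All 4 genes had a log2 fold change above 0 and none passed the threshold. Ulk2 had 4899, 4125 and 3040 normalized counts in vehicle replicates 1, 2 and 3 and 5286, 5832 and 4667 in BML-260 replicates 1, 2 and 3. The highest values were those of BML-260 replicates 1 and 2, and the groups overlapped only between vehicle replicate 1 and BML-260 replicate 3. Its log2 fold change was 0.38 (standard error 0.20, 95% interval -0.071 to 0.84), with an unadjusted p of 0.088 and an adjusted p of 0.788 in edgeR. Without vehicle replicate 3 it was 0.21. Ulk1 had 2081, 2061 and 2121 normalized counts with vehicle and 2079, 2623 and 2508 with BML-260, and its log2 fold change was 0.20 (standard error 0.14). The vehicle libraries were close together and BML-260 replicate 1 was level with them. Rb1cc1, the most abundant of the 4 with a mean TPM of 47.6, had 7816, 9507 and 9441 with vehicle and 8227, 10759 and 7926 with BML-260. Its groups overlapped throughout and its log2 fold change was 0.0044 (95% interval -0.40 to 0.41), while that of Atg13 was 0.054. Ulk2 exceeded Ulk1 in TPM in every library, by a ratio of 1.72 ± 0.419 (SD, n = 3) in the vehicle group and of 1.96 ± 0.295 (SD, n = 3) in the BML-260 group.

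The class III PI3-kinase complex makes the lipid signal on the forming membrane. Its catalytic subunit is VPS34 (Pik3c3), with VPS15 (Pik3r4) and Beclin 1 (Becn1), and it contains either ATG14 or UVRAG. None of the 5 genes passed the threshold. Becn1, the most abundant (mean TPM 37.9), had 2187, 2020 and 2063 normalized counts with vehicle and 2168, 2145 and 1926 with BML-260. It was among the least variable of the genes, with a log2 fold change of -0.01 and a 95% interval of -0.30 to 0.28. Uvrag had 808, 858 and 1346 with vehicle and 654, 818 and 1002 with BML-260. Vehicle replicate 3 was the highest library, the groups overlapped, and the log2 fold change of -0.29 (adjusted p = 0.796 in edgeR, standard error 0.24) was -0.021 without that library. Pik3c3 and Pik3r4 had log2 fold changes of 0.13 and 0.12 and Atg14 one of -0.076, with standard errors of 0.13 to 0.15.

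The membrane supply genes encode the scramblase ATG9A, which is carried on the vesicles that seed the autophagosome, the lipid transfer proteins ATG2A and ATG2B, and the lipid-binding proteins WIPI1 and WIPI2. Atg9a was both the most abundant of the 5 (mean TPM 38.6) and the one with the largest change. It had 4190, 3812 and 2916 normalized counts in vehicle replicates 1, 2 and 3 and 4346, 4389 and 4837 in BML-260 replicates 1, 2 and 3. All BML-260 values lay above all vehicle values, by a narrow margin over vehicle replicate 1. The mean was 3640 ± 654 (SD, n = 3) in the vehicle group and 4524 ± 272 (SD, n = 3) in the BML-260 group. The log2 fold change of 0.31 (standard error 0.17, 95% interval -0.081 to 0.70) did not pass the test, with an unadjusted p of 0.105 in edgeR, and it was 0.17 without vehicle replicate 3. In TPM the groups of Atg9a overlapped, at 33.4 to 38.3 with vehicle and 36.2 to 45.4 with BML-260. The other genes of this role had log2 fold changes of 0.14 (Atg2a), 0.0027 (Atg2b), -0.091 (Wipi1) and 0.021 (Wipi2), with standard errors of 0.13 to 0.17.

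The conjugation machinery links ATG12 to ATG5 and ATG8 proteins to lipid. ATG7 is the activating enzyme, ATG3 and ATG10 are the conjugating enzymes, ATG16L1 places the reaction on the membrane, and the ATG4 proteases trim ATG8 proteins before and after. None of the 9 genes passed the threshold, and their log2 fold changes ran from -0.16 to 0.25. Atg12 had 1199, 1053 and 841 normalized counts with vehicle and 1282, 1361 and 1056 with BML-260. Vehicle replicate 3 was the lowest library, and the log2 fold change of 0.25 (adjusted p = 0.788 in edgeR, standard error 0.18) was 0.12 without it. Atg4a, the most abundant of the 9, had 1785, 1665 and 1669 with vehicle and 1826, 1696 and 1590 with BML-260, a log2 fold change of -0.0049 with a 95% interval of -0.30 to 0.29. Atg4b and Atg10 were also close to 0 (0.038 and 0.0034), but Atg10 varied more, from 319 to 578 normalized counts among the vehicle libraries, and its standard error was 0.23. The log2 fold changes of Atg4d, Atg5 and Atg16l1 were 0.22, 0.16 and 0.13, and Atg3 and Atg7 both had -0.16, which without vehicle replicate 3 became -0.047 and 0.043.

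The ATG8 family carries the ubiquitin-like proteins that coat the autophagosome and bind receptors: LC3A (Map1lc3a), LC3B (Map1lc3b), GABARAP, GABARAPL1 and GABARAPL2. All 5 genes had a log2 fold change below 0, with a median of -0.34, and none passed the threshold. Without vehicle replicate 3 the median was -0.10 with 4 of 5 below 0, and Map1lc3a was then past the threshold. It was the only 1 of the 36 genes past it in that fit (2.78%), beside 3.98% of all genes (482 of 16502 lower).

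Gabarapl1 had the largest change of the 36 genes. It had 2333, 1923 and 6361 normalized counts in vehicle replicates 1, 2 and 3 and 1718, 2158 and 2112 in BML-260 replicates 1, 2 and 3. Vehicle replicate 3 was 2.99-fold above the mean of the other vehicle libraries, which were in the range of the BML-260 libraries or just above it. The log2 fold change was -0.83 (standard error 0.41, 95% interval -1.75 to 0.10), with an unadjusted p of 0.0748 in edgeR and 0.0261 in DESeq2, and it was -0.10 without vehicle replicate 3. The macrophage, neutrophil and erythroid markers were highest in the same library, and their part in the level of Gabarapl1 was not tested. Gabarapl1 is known as a target of FOXO transcription factors, and Foxo1 and Foxo3 were both highest in vehicle replicate 3. The log2 fold change of Foxo1 was -0.92 (unadjusted p = 0.0251 in edgeR), and -0.44 without that library. That of Foxo3 was -0.33, which turned to 0.12 without it, and that of Foxo4 was 0.24 (0.21 without it). The part of FOXO factors in the level of Gabarapl1 was not tested. The promoter of Gabarapl1 is shown because this gene carried the largest difference; it is the RefSeq sequence of GRCm38.p6 at chr6:129532942-129533241, plus strand, from 250 bases before to 50 bases after the gene start, and capitals mark a match to TAAACAA, a form of the FOXO core, 94 bases before the start.
Gabarapl1: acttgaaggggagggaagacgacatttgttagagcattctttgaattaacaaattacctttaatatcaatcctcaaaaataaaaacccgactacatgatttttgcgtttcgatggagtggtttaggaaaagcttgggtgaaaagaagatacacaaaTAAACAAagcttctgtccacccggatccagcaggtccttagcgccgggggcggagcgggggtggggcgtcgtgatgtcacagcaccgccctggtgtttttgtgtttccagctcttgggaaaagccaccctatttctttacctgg
This form was searched after it had been seen in this window, so the match is a description only. With both strands searched, it was in 3 of the 35 windows (8.57%), those of Wipi2, Atg4a and Gabarapl1, against 4.23% of all 32851 windows. The log2 fold changes of Wipi2 and Atg4a were 0.021 and -0.0049. The overlapping form GTAAACA was in 0 of the 35 windows of the 30 genes with an entry in the promoter table and in 3.65% of all windows, both strands searched.

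Gabarap had 2983, 2754 and 4576 normalized counts with vehicle and 2688, 2476 and 2608 with BML-260. All BML-260 values were below all vehicle values, but vehicle replicate 2 was higher than BML-260 replicate 1 by little. Its log2 fold change was -0.41 (standard error 0.20, 95% interval -0.87 to 0.049, unadjusted p = 0.0735 in edgeR) and -0.15 without vehicle replicate 3.

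Map1lc3a behaved differently from the other family members in vehicle replicate 3, where it was low and not high. It had 9107, 8973 and 6830 normalized counts with vehicle and 8716, 5049 and 5945 with BML-260. BML-260 replicate 1 was level with vehicle replicates 1 and 2, and the groups overlapped. In edgeR the log2 fold change was -0.34 (standard error 0.23, 95% interval -0.87 to 0.19, unadjusted p = 0.178). Without vehicle replicate 3 it was -0.47 with an unadjusted p of 0.0434 and an adjusted p of 1. On log2(TPM + 1), where limma's trend test gave -0.52 with an unadjusted p of 0.0309, the groups did not overlap: 308, 290 and 320 TPM with vehicle and 268, 175 and 206 with BML-260.

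Map1lc3b had 6921, 5513 and 10060 normalized counts with vehicle and 6483, 6201 and 6016 with BML-260, so that all BML-260 libraries lay between vehicle replicates 2 and 1. Its log2 fold change of -0.27 (standard error 0.22) was -0.0031 without vehicle replicate 3. Gabarapl2 was the steadiest of the family, from 1882 to 2531 with vehicle and from 2111 to 2322 with BML-260, a log2 fold change of -0.014 with a 95% interval of -0.36 to 0.33.

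Shares within a library do not depend on how libraries are scaled, so the family was also described as percent of its summed TPM. Map1lc3a held 48.7%, 52.7% and 31.4% of the family in vehicle replicates 1, 2 and 3 and 50%, 37.4% and 40.7% in BML-260 replicates 1, 2 and 3. Vehicle replicate 3 had the lowest share, and it had the highest share of Gabarapl1 (17.2%, against 5.8% to 9.42% in the other 5 libraries). Gabarapl2 held 13.4%, 11.8% and 12.4% with vehicle and 14.2%, 16.7% and 16.6% with BML-260. The groups did not overlap for this share, and an exact two-sided permutation test gave p = 0.1, the smallest that 3 against 3 libraries allow (adjusted p = 0.667 over the 10 shares and ratios computed). The ratio of Map1lc3b to Map1lc3a was 0.402 ± 0.192 (SD, n = 3) in the vehicle group and 0.421 ± 0.103 (SD, n = 3) in the BML-260 group, a difference far below the spread.

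**Figure D4:**
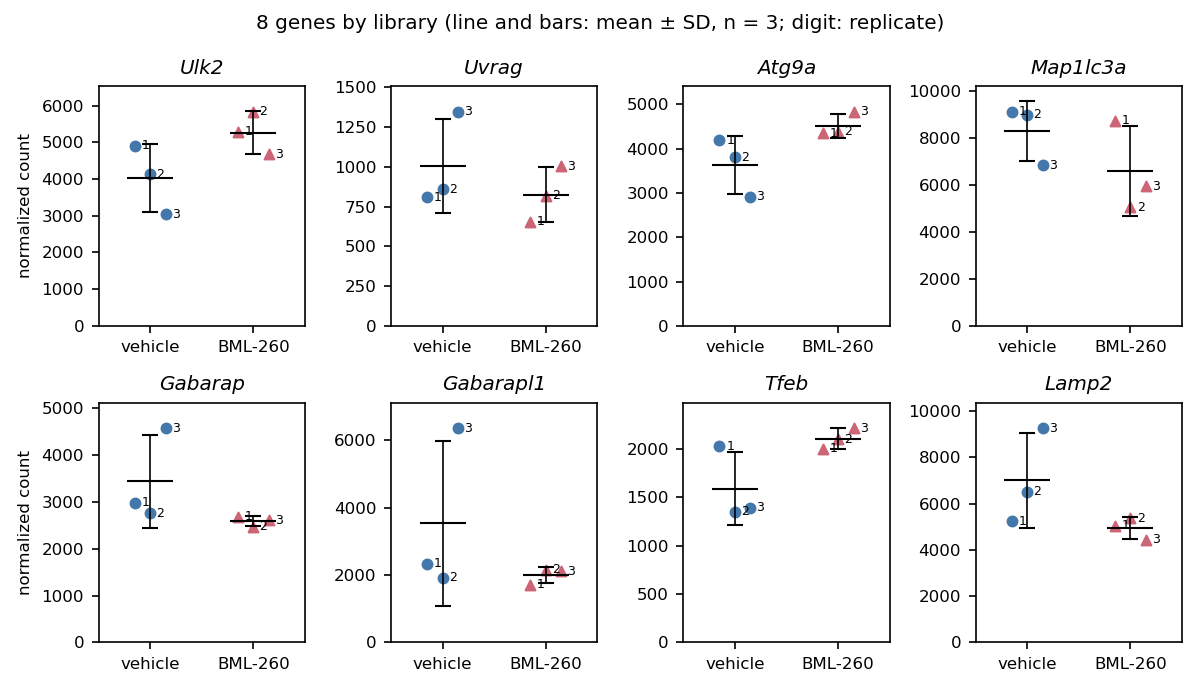
Normalized counts of 8 genes in each library (circles vehicle, triangles BML-260, digit the replicate) with mean and SD (n = 3); axes start at 0. Vehicle replicate 3 is the highest point for Uvrag, Gabarap, Gabarapl1 and Lamp2 and the lowest for Ulk2 and Atg9a, while the BML-260 libraries of Gabarapl1 lie between 1718 and 2158.

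The cargo receptors bind ubiquitin-marked cargo and ATG8 proteins at the same time. None of the 3 genes passed the threshold. Sqstm1 had 26476, 21457 and 36234 normalized counts with vehicle and 19801, 24641 and 25436 with BML-260. Its groups overlapped, vehicle replicate 3 was the highest, and the log2 fold change of -0.27 (95% interval -0.79 to 0.26) became -0.047 without that library. Nbr1 had 5444, 5591 and 7584 with vehicle and 5130, 5653 and 5413 with BML-260, a pattern of the same form, with a log2 fold change of -0.20 that became -0.037. Optn, the gene of optineurin, differed little, by 0.044 on the log2 scale (standard error 0.15).

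Among the lysosomal genes, TFEB and TFE3 are related transcription factors that drive lysosome biogenesis, LAMP1 and LAMP2 are membrane glycoproteins, of which LAMP2 also serves chaperone-mediated autophagy, and VPS18 is a core subunit of the tethering complexes that fuse vesicles with the lysosome. Lamp2 had 5239, 6516 and 9264 normalized counts in vehicle replicates 1, 2 and 3 and 5039, 5373 and 4442 in BML-260 replicates 1, 2 and 3. Vehicle replicates 2 and 3 were above all BML-260 libraries, and vehicle replicate 1 was below BML-260 replicate 2, so the groups overlapped. The mean was 7006 ± 2057 (SD, n = 3) in the vehicle group and 4951 ± 472 (SD, n = 3) in the BML-260 group. The log2 fold change was -0.50 (standard error 0.21, 95% interval -0.99 to -0.011), a fold of 0.706, with an unadjusted p of 0.0462 and an adjusted p of 0.788 in edgeR. Without vehicle replicate 3 the log2 fold change was -0.25 with an unadjusted p of 0.116, and the gene was no longer past the threshold. Macrophages are rich in lysosomes, and 8 of the 9 macrophage markers were past the same threshold and lower with BML-260, beside 4.86% of all genes. Their median log2 fold change was -1.36. In sum they had 18386 normalized counts in vehicle replicate 3, against 6305 and 6557 in vehicle replicates 1 and 2 and 3829 to 4780 with BML-260. Marker changes without vehicle replicate 3 are not given here. The part of macrophages in the level of Lamp2 was not tested.

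Lamp1, which was 283 in mean TPM against 68.2 for Lamp2, had 18050, 14412 and 17598 normalized counts with vehicle and 18478, 16895 and 16216 with BML-260. Its groups overlapped throughout, and its log2 fold change was 0.041 (95% interval -0.34 to 0.42). The ratio of Lamp2 to Lamp1 in TPM was 0.19, 0.295 and 0.355 in vehicle replicates 1, 2 and 3 and 0.182, 0.208 and 0.181 in BML-260 replicates 1, 2 and 3. The ratio overlapped between the groups only through vehicle replicate 1, and the exact two-sided permutation test gave p = 0.2 (adjusted p = 0.667). The RefSeq promoter of Lamp2, the only gene past the threshold, lies on GRCm38.p6 at chrX:38456411-38456710, minus strand, and is printed 5′ to 3′ over the same span around the gene start, with no capitals because none of the motifs searched was in it.
Lamp2: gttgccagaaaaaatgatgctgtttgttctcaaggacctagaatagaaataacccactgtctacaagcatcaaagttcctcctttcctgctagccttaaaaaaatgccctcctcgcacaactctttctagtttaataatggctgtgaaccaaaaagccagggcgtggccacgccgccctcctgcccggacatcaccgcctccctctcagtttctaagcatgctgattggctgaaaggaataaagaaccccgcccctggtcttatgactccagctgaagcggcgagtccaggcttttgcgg

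Tfeb had 2025, 1352 and 1391 normalized counts with vehicle and 2004, 2100 and 2214 with BML-260. Vehicle replicates 2 and 3 were below all BML-260 libraries, and vehicle replicate 1 was level with BML-260 replicate 1. The log2 fold change was 0.40 (standard error 0.18, 95% interval -0.013 to 0.82, unadjusted p = 0.0558 and adjusted p = 0.788 in edgeR). It was 0.31 without vehicle replicate 3, and without vehicle replicate 1 it was 0.62 with an unadjusted p of 0.00313 and past the threshold. In that last fit 13.3% of all genes were past the threshold, beside 5.75% with all 6 libraries. The change of Tfeb was the largest toward higher values among the 36 genes, and it did not pass the test. Tfe3 had 224, 250 and 256 normalized counts with vehicle and 208, 246 and 215 with BML-260, a log2 fold change of -0.13 (standard error 0.17). Tfeb exceeded Tfe3 in TPM in all 6 libraries, 7.08 ± 2.24-fold (SD, n = 3) in the vehicle group and 10.8 ± 1.81-fold (SD, n = 3) in the BML-260 group, and the exact two-sided permutation test of this ratio gave p = 0.2 (adjusted p = 0.667). The log2 fold change of Vps18 was 0.19 (standard error 0.16).

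TFEB binds the CLEAR element, which is built on the palindrome CACGTG. The core GTCACGTG or its reverse complement was found in the promoter windows of 4 of the 30 genes with an entry (Atg14, Atg3, Atg7 and Lamp1), or 4 of 35 windows (11.4%), against 2.25% of all 32851 windows. The shorter CACGTG, which lies inside it, was in 5 windows (14.3%), Atg5 in addition, against 7.15% of all windows. Becn1, Rb1cc1, Pik3c3, Atg12, Map1lc3a and Atg16l1 were not searched. Not every window lies at the outer start of its gene in the annotation: 17 of the 35 do, and that of Atg7 is built on a start 27969 bases inside the gene and is not shown. The stretches of Atg14, Atg3 and Lamp1 are shown because there the core stands within the window at the outer gene start. They lie on GRCm38.p6 at chr14:47568412-47568451 (minus strand), chr16:45158717-45158779 (plus) and chr8:13159117-13159156 (plus), and capitals mark the core or its reverse complement.
Atg14: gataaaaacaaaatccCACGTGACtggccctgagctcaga
Atg3: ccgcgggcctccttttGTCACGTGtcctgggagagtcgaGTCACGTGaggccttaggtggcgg
Lamp1: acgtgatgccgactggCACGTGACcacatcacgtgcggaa
Atg3 holds the core 2 times within 63 bases. A match describes these letters only. The log2 fold changes of the 4 genes were -0.076 (Atg14), -0.16 (Atg3), -0.16 (Atg7) and 0.041 (Lamp1), none past the threshold, beside 0.40 for Tfeb itself.

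The remainder of the pathway was followed with 5 further lists of 87 genes, of which 86 were tested. In the list of other autophagy machinery (18 genes, 17 tested), 13 genes had a log2 fold change above 0 and 4 below, none passed the threshold, and the median was 0.081. Without vehicle replicate 3 there were 10 above and 7 below, with a median of 0.075. The largest change was that of Tecpr1, a tether of autophagosomes and lysosomes, which had 988, 895 and 761 normalized counts with vehicle and 1015, 1101 and 1284 with BML-260. These groups did not overlap, and the log2 fold change was 0.36 (standard error 0.16, unadjusted p = 0.054 in edgeR), or 0.26 without vehicle replicate 3.

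The vacuolar ATPase pumps protons into the lysosome. Of its 16 genes, 3 were past the threshold, all lower with BML-260 (18.8%, beside 4.86% of all genes), 6 had a log2 fold change above 0 and 10 below, and the median was -0.095. Atp6v1a, the catalytic subunit, had 1713, 2071 and 2318 normalized counts with vehicle and 1478, 1543 and 1595 with BML-260. All BML-260 libraries were below all vehicle libraries, and the log2 fold change was -0.40 (standard error 0.15, unadjusted p = 0.0251, adjusted p = 0.788 in edgeR). Without vehicle replicate 3 the change of Atp6v1a was -0.30 with an unadjusted p of 0.0459, so that the difference was smaller than 1.3-fold. Atp6v0e, a small membrane subunit, had 503, 504 and 783 with vehicle and 394, 473 and 371 with BML-260. The groups did not overlap, and the log2 fold change was -0.54 (standard error 0.21), or -0.29 without vehicle replicate 3. Atp6ap2, an accessory subunit, had 1060, 1408 and 2318 with vehicle and 899, 1214 and 949 with BML-260. These groups overlapped, and the log2 fold change of -0.65 (standard error 0.27) was -0.28 without that library. None of the 16 genes was past the threshold without vehicle replicate 3, without BML-260 replicate 1 or 3, or on log2(TPM + 1). With DESeq2, 4 were past it and lower, where 968 of 25745 genes were. The list was chosen with earlier results of these data known, so its share beside that of all genes is a description only. The largest change of the list was that of Atp6v1h, -0.83 (unadjusted p = 0.0548 in edgeR) and -0.22 without that library. In the other direction, Atp6v0a2 was higher in every BML-260 library than in any vehicle library. Its log2 fold change was 0.30 (unadjusted p = 0.0638 in edgeR), or 0.27 without vehicle replicate 3.

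Of 24 lysosomal hydrolases and membrane proteins, 18 had a log2 fold change below 0, with a median of -0.14. Without vehicle replicate 3 there were 12 above and 12 below, with a median of 0.00038. Galns, which encodes a sulfatase that degrades glycosaminoglycans, was the one gene past the threshold. It was lower with BML-260 (4.17% of the list, beside 4.86% of all genes), and its level was low, at a mean TPM of 1.2. It had 87.7, 111 and 110 normalized counts with vehicle and 43.2, 46 and 88 with BML-260. BML-260 replicate 3 was just above vehicle replicate 1, so the groups overlapped, and the log2 fold change was -0.81 (standard error 0.34, unadjusted p = 0.0437 in edgeR) and -0.76 (unadjusted p = 0.0567) without vehicle replicate 3. No gene passed the threshold among 11 genes of autophagosome-lysosome fusion (median 0.051) and 18 genes of mTORC1 and its lysosomal regulators (median 0.073). Without vehicle replicate 3 these medians were 0.057 and -0.004. The largest change among the former was that of Ykt6, a SNARE, with 1591, 1410 and 1233 normalized counts in the vehicle libraries and 1670, 1756 and 1626 in the BML-260 libraries. These groups did not overlap, and the log2 fold change was 0.25 (standard error 0.14), or 0.16 without vehicle replicate 3. Among the latter it was that of Rragd, a Rag GTPase that recruits mTORC1 to the lysosome, with 13792, 11502 and 10770 and with 14803, 15578 and 13265. These groups overlapped, and the log2 fold change was 0.27 (standard error 0.17), or 0.19 without vehicle replicate 3.

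**Figure D5:**
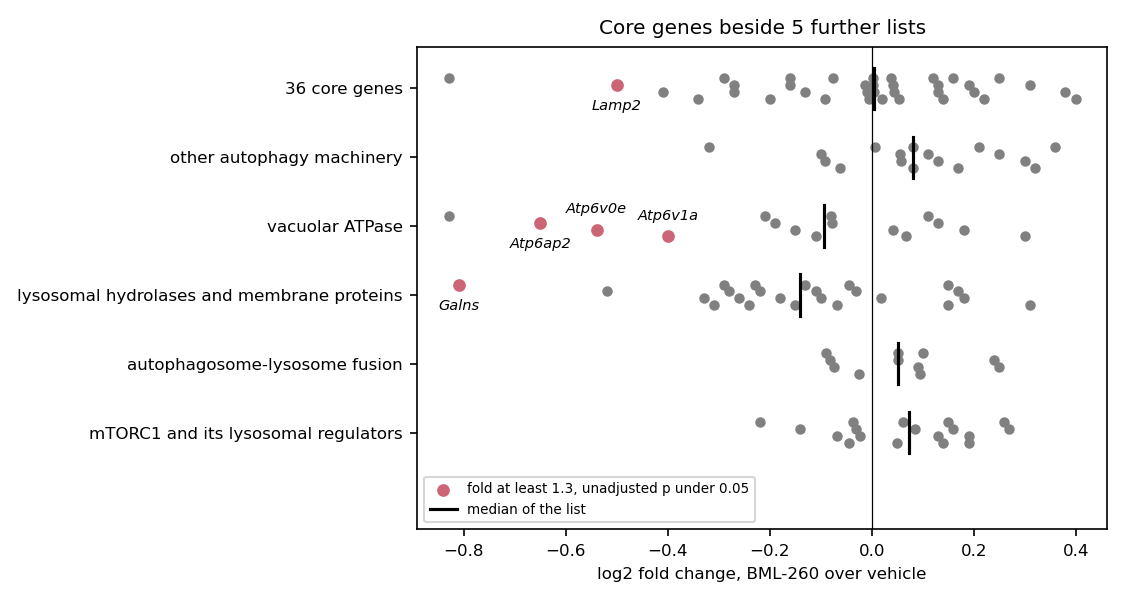
Points are the log2 fold changes (BML-260 over vehicle) of single genes, for the 36 core genes and for 5 further lists; black lines are medians and red points are genes that differed 1.3-fold or more with an unadjusted p below 0.05. The 3 red points of the vacuolar ATPase and those of Lamp2 and Galns all lie below 0, and the medians lie between -0.14 and 0.081.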

How the data were processed

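Total RNA of TA muscle was made into libraries with a stranded total RNA kit per the labels, 3 libraries a group, and the methods of the study give 3 mice a group. The submitters' processing notes name StringTie 2.1.3b, Bowtie2 2.3.4.1, Trimmomatic 0.38 and HISAT2 2.1.0, and the build mm10. The authors deposited raw read counts per gene for all 6 libraries, and TPM per gene and library, scaled by the authors for transcript length and library total. The rule for strand and multi-mapped reads is not given in the sources used here. Of the 36 genes, 16 overlap the span of another gene in RefSeq (GRCm38.p6), Lamp2 and Gabarapl1 among them. For 2 (Atg4a and Gabarapl2) a pseudogene is annotated under the symbol of the gene with the ending -ps. The counts of these genes are less certain, and pseudogenes under other names were not searched.

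Counts were tested in R 4.3.3 with edgeR 4.0.16 (filterByExpr, TMM, quasi-likelihood F-test, Benjamini-Hochberg adjustment over 16188 genes). The standard error is the log2 fold change over the square root of F. The thresholds were an adjusted p under 0.05, and a 1.3-fold or larger difference with an unadjusted p below 0.05. For values by library, counts were divided by DESeq2 1.42.0 size factors (normalized counts). Confidence intervals are at 95%. Promoter windows of 250 bases before to 50 after the gene start are from RefSeq, and 30 of the 36 genes had an entry, with 17 of 35 windows at the outer start of the gene. Vamp7 could not be matched and was not analysed here, and Atg9b was not tested. Marker levels are sums of normalized counts. The scripts were tested on simulated data.

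Every gene of the 36 was named, with values by library where the unadjusted p was under 0.05 and for the gene with the largest change and the one with the highest TPM in each role; other values by library were added after they were seen. Of each further list, genes past the lenient threshold were named, or the one with the largest change. Atp6v1h and Atp6v0a2 were added after their values were seen. The members and lists were chosen with earlier results of these data known. The alternatives were RLE and upper quartile scaling, no filter (1 count or more in total), a minimum of 10 counts per library, a block for the replicate number, each library left out, DESeq2, limma 3.58.1 voom with quality weights, and limma-trend on log2(TPM + 1) or log2(TPM + 0.1). Figures were drawn with matplotlib 3.10.9.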

Additional observations from a re-analysis of the deposited data

How the results depend on the processing

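Of 576 values of the 36 genes under 16 alternatives, 73 had the other sign than in the main analysis, none of them for a gene past a threshold in either; 19 of the 36 genes kept their sign throughout. The median log2 fold change of the 36 genes was 0.0039, moved to -0.12 and -0.13 on log2(TPM + 1) and log2(TPM + 0.1), and to -0.12 on log2(TPM + 1) over all genes above 0, where the median of all genes tested was -0.10, -0.14 and -0.089; it ranged from -0.022 to 0.047 over the libraries left out. The call of Lamp2 was lost under 10 of the 16 alternatives, in which its log2 fold change was -0.62 to -0.25. The count of the 36 genes past the lenient threshold and lower was 1; it ranged from 0 (without BML-260 replicate 2 or 3) to 2 (without vehicle replicate 1 or 2) over the libraries left out, and was 2 with DESeq2 (Gabarapl1 and Lamp2) and 0 with voom. The count higher was 0, and it ranged from 0 to 4, the latter without vehicle replicate 1 (Ulk2 0.55, Atg9a 0.43, Atg4d 0.42 and Tfeb 0.62), and was 1 with voom (Tfeb, 0.41). Among all genes tested, those higher rose from 145 of 16188 to 835 of 16719 without vehicle replicate 1, and were 255 with voom. Those lower were 786 in the main fit, 1388 and 1008 without vehicle replicates 1 and 2, and 439 and 574 without BML-260 replicates 2 and 3. They were 968 of 25745 with DESeq2 and 635 with voom. Map1lc3a was past the threshold under 5 alternatives, Gabarapl1 under 3 and Gabarap under 1 (-0.54, without vehicle replicate 2). Over all genes, 931 were past the lenient threshold, 1416 without a filter, 503 and 446 on log2(TPM + 1) with the filter and over all genes above 0, and 503 (without BML-260 replicate 2) to 2223 (without vehicle replicate 1) over the libraries left out. At an adjusted p under 0.05 there were 0 genes, 1 without a filter, 1 with at least 10 counts in every library, 1 with voom, 82 with DESeq2, and 0 to 9 over the libraries left out (9 without vehicle replicate 1 and 6 without vehicle replicate 3). The causes were not tested.

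The replicate numbers are shared by the labels of both groups, but the mice were separate. Deviations of same-numbered libraries correlated at 0.162, 0.0541 and 0.11, so the numbers were not taken to pair them, although every library correlated best with its own number, a hint from the data and not the design. With a replicate block, 1 of the 36 genes was past the threshold and higher (Ulk2, 0.41) and 0 were lower (Lamp2, -0.47, unadjusted p = 0.0724). Of all 16188 genes 1057 were past it, 326 higher and 731 lower. With 3 libraries a group, the intervals of 14 of the 36 genes reach beyond 1.5-fold, so a change of that size is not excluded for those genes.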
